A study of Mus musculus with 12 samples.

Results

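The genes described here carry a signal from a receptor at the cell surface to cyclic AMP (cAMP) and cyclic GMP (cGMP) inside the cell. They were taken from the table of normalized values by gene symbol: the G protein α subunits of the inhibitory, q, 12/13 and olfactory classes, the β and γ subunits, the adenylate cyclases, the Rgs proteins and the phosphodiesterases. The rule found 80 genes of 45808 in the table. Of these, 54 reached a signal of 10 in 3 or more of the 12 libraries and were tested, among 14201 genes tested in all. A further 18 were read below that limit, and 8 (Adcy2, Adcy8, Gng3, Rgs1, Rgs6, Rgs13, Rgs18 and Rgs21) had no read in any library. Signal is the number of reads in a gene divided by a size factor of its library, so that 1 read was worth 0.699 to 1.38 units.

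The libraries came from mouse embryonic fibroblasts (MEFs), cells grown out of dissociated embryos at embryonic day 14. There were 4 groups of 3 libraries: heat-shocked TG2 knockout (KO) MEFs, KO control MEFs, heat-shocked wild-type (WT) MEFs and WT control MEFs. Heat shock was 20 min in a water bath at 42 °C, and control MEFs were cultured at 37 °C. All cells were C57BL/6 and had been passaged until they immortalized spontaneously, so the loss of type 2 transglutaminase (TG2) cannot be told apart from other differences between a KO and a WT cell line. Whether separate cultures lie behind the 3 libraries of a group is not given in the sources used here, and p-values then measure the spread between these libraries, which may be technical.

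An activated receptor makes the α subunit of a G protein exchange GDP for GTP and part from the βγ dimer. The stimulatory α subunit switches on adenylate cyclases, which make cAMP from ATP, the inhibitory class restrains them and the q class activates phospholipase C β. Rgs proteins speed up GTP hydrolysis by α subunits and so end the signal, and phosphodiesterases break down cAMP, cGMP or both. TG2 itself binds GTP and is known in this role as Gh, an α subunit that couples α1 adrenergic receptors to phospholipase C δ.

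Tgm2, the gene of TG2, had a signal of 1189, 1032 and 1065 in KO control MEFs, against 1750.2, 1635 and 1605 in WT control MEFs, and of 1049, 526 and 1092 in heat-shocked KO MEFs, against 2049, 1957 and 1989 in heat-shocked WT MEFs. Every KO library was below every WT library, but reads remained in all of them. The call of a lower level in KO control MEFs (log2 fold change -0.60, limma adjusted p = 0.0104) was lost with quantile normalization (-0.56), in edgeR (-0.58), and on leaving out WT control replicate 1 (-0.57) or KO control replicate 2 (-0.56). Which part of the gene the KO allele lacks is not given in the sources used here, so a count over the whole gene is a limited check of the genotype. Libraries held 15319300 to 27668395 reads in genes. Fibroblast markers were read in both genotypes: 10 of 12 were tested, 5 called higher and 4 lower in KO control MEFs (Thy1 3.998, S100a4 2.67, Col1a1 -2.95 and Pdgfra -1.57), with a summed signal of 217749 to 225678 in KO control MEFs and 205424 to 231762 in WT control MEFs. Of 8 smooth muscle and pericyte markers, 5 were tested, and 2 were higher and 3 lower (Des 4.37 and Acta2 -2.62), with a summed signal of 1680.04 to 1903 in KO control MEFs and 4885 to 5496.5 in WT control MEFs. Of 9 macrophage markers, 2 were tested, with a summed signal of 92.7 to 116 in KO control MEFs and 4153 to 4778 in WT control MEFs. Csf1r, a macrophage receptor gene, averaged 12.3 ± 8.43 in KO control and 4332 ± 293 in WT control MEFs (SD, n = 3 each) and held most of the sum in WT control MEFs, while 6 of the 9 markers were at 0 in every WT control library. None of 9 lymphocyte markers was tested. Of 7 neuronal markers, 3 were tested: Map2 had no read in KO control MEFs and 1952 reads in WT control MEFs, Syt1 was lower (-3.40) and Tubb3 was not called (-0.04), and the summed signal was 907 to 1135 in KO control MEFs and 1663 to 1818 in WT control MEFs. The part of these differences in the results below was not tested.

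In KO control MEFs, 41 of the 54 tested members were called relative to WT control MEFs, 15 of them higher and 26 lower. A call needed a limma p of 0.05 or less after Benjamini-Hochberg adjustment and a fold of 1.5 or more, and by that rule 48.8% of all genes tested were called, 22.9% higher and 25.8% lower. That is 3255 genes called higher and 3669 called lower, a balance that quantile normalization turned to 4074 higher and 3170 lower; it gave 16 members higher and 24 lower. The libraries of the genotypes did not overlap for 48 of the 54 members, against 76.4% of all genes. A call with a change of at least 4-fold was made for 22 members, against 16.2% of all genes. The median size of the log2 fold change was 1.51 over the members and 0.59 over all genes. Calls were spread unevenly over the families. All 8 tested γ subunits, 5 of 6 cyclases, 10 of 12 Rgs genes and 12 of 15 phosphodiesterases were called, compared with 4 of 9 α subunits and 2 of 4 β subunits. Some called members, such as Gng13, Adcy5, Pde1b, Rgs22 and Rgs20, passed the filter only through the genotype in which they were high. For such members the filter itself favours a call, so the counts by family cannot be compared as a test. Within a family, the direction was mostly mixed: 3 γ subunits were higher and 5 lower, 3 Rgs genes were higher and 7 lower, and 6 phosphodiesterases went each way. The cyclases were the exception, with 5 lower and 0 higher.

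**Figure D1:**
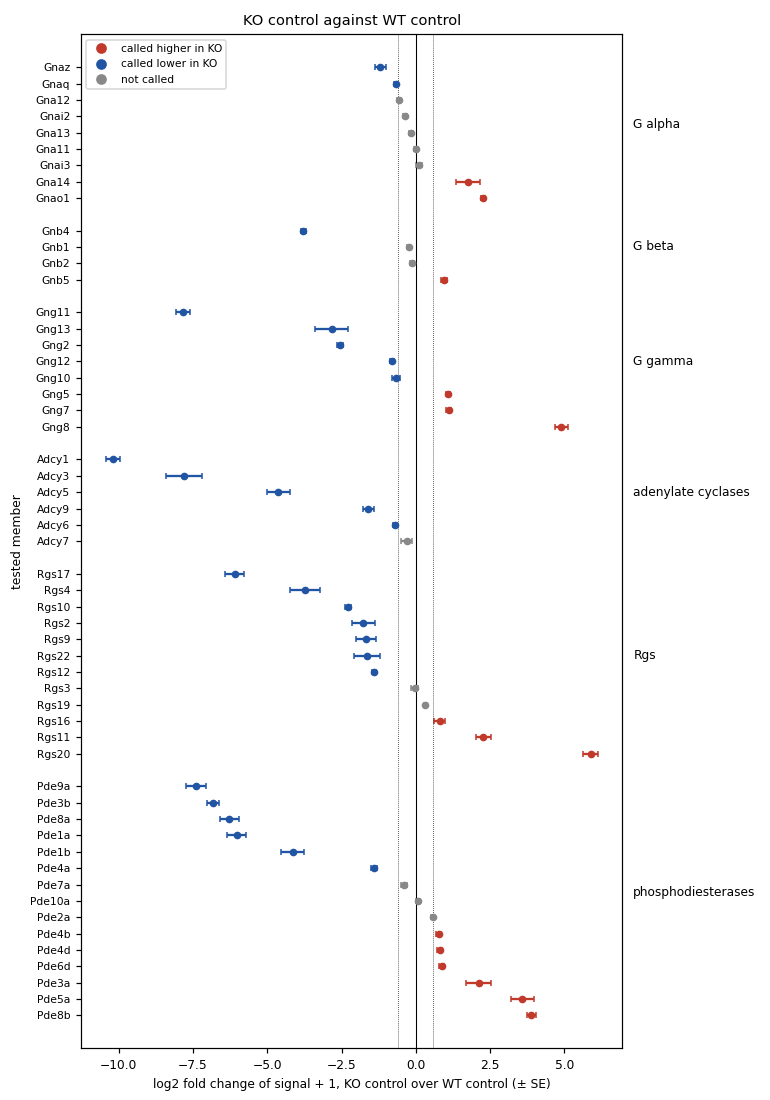
The log2 fold change of each of the 54 tested members in KO control over WT control MEFs, with its standard error, by family; dotted lines mark a fold of 1.5. Red points are called higher in KO, blue points called lower and grey points not called; the points run from -10.20 for Adcy1 to 5.88 for Rgs20, and where a group has no or few reads, as in these genes, the position depends on the pseudocount and is no bound.

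**Figure D2:**
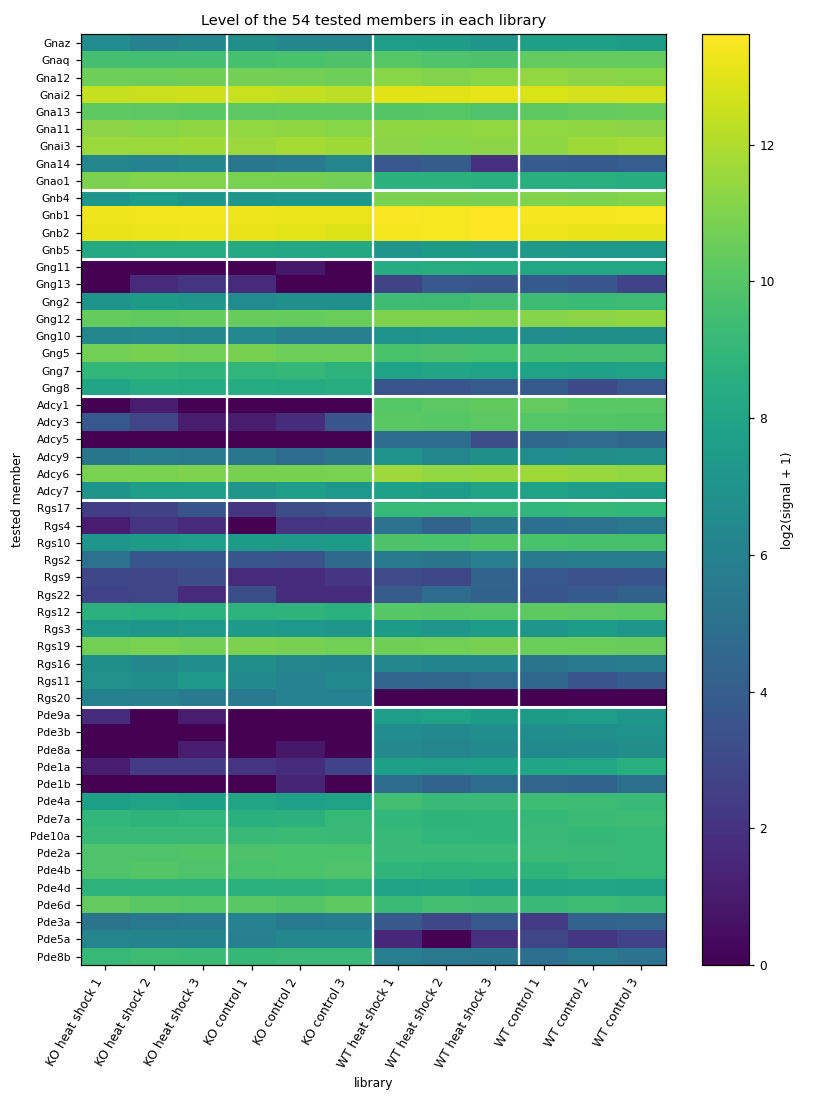
Each row is a tested member, ordered within its family by fold change, each column is a library, and the colour is log2(signal + 1). The KO libraries, heat-shocked or not, stand left of the WT libraries, and within a genotype the heat-shocked and control columns look alike for most rows.

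Among the inhibitory α subunits, Gnao1 rose and Gnaz fell. Gnao1 had a signal of 1868, 1786 and 1768 in KO control MEFs, against 398, 363 and 361 in WT control MEFs. All KO libraries were above all WT libraries, and the log2 fold change was 2.27 ± 0.06 (SE; adjusted p = 1.78e-13). Gnao1 encodes Go, best known as an abundant α subunit of neurons. Gnaz had a signal of 106, 78.2 and 76.9 in KO control MEFs, against 208, 209 and 179 in WT control MEFs, a log2 fold change of -1.19 ± 0.18 (SE; adjusted p = 2.03e-05); Gz is an α subunit that hydrolyses GTP slowly. Gnai2 and Gnai3, which encode widely expressed inhibitory subunits, kept the highest levels of the family. Per kb of exon, Gnai2 had a signal of 1393 ± 92.4 in KO control and 1802 ± 108 in WT control MEFs, and Gnai3 1005 ± 79.6 in KO control and 948 ± 158 in WT control MEFs (SD, n = 3 each). Gnai2 had a log2 fold change of -0.37 ± 0.06 (SE; adjusted p = 9.96e-05), below the fold limit, and Gnai3 one of 0.09 ± 0.10 (SE; adjusted p = 0.381). Gnai1 had 0 reads in KO control and 5 reads in WT control MEFs, too few to test.

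The q class also split. Gnaq had a signal of 792, 838 and 886 in KO control MEFs, against 1309, 1352 and 1350.5 in WT control MEFs, with no overlap and a log2 fold change of -0.67 ± 0.06 (SE; adjusted p = 2.04e-07). Its relative Gna14 was scarce and higher: 39.2, 49.1 and 73.5 in KO control MEFs, against 14.5, 13.7 and 16.1 in WT control MEFs (log2 fold change 1.76 ± 0.41 (SE; adjusted p = 0.00136)). Gna11, the other widely expressed gene of this class, averaged 2534 ± 156 in KO control and 2525 ± 129 in WT control MEFs (SD, n = 3 each), a log2 fold change of 0.00 ± 0.06 (SE; adjusted p = 0.951). The 12/13 class was not called. Gna12 had a log2 fold change of -0.56 ± 0.07 (SE; adjusted p = 3.37e-06), just under the fold limit, which it passed without WT control replicate 2 (-0.59), WT control replicate 3 (-0.60) or KO control replicate 2 (-0.58), and Gna13 one of -0.15 ± 0.06 (SE; adjusted p = 0.0413). Gnas, which encodes the stimulatory subunit and lies outside the symbol rule, averaged 26711 ± 1278 in KO control and 20527 ± 989.98 in WT control MEFs (SD, n = 3 each) and was not called (log2 fold change 0.38).

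Of the β subunits, Gnb4 fell and Gnb5 rose, while the most abundant genes Gnb1 and Gnb2 were not called. Gnb4 had a signal of 148, 155 and 151 in KO control MEFs, against 2062, 2054 and 2199.99 in WT control MEFs. The groups were far apart (log2 fold change -3.79 ± 0.10 (SE; adjusted p = 6.29e-14)). Gnb5, whose product pairs with the R7 class of Rgs proteins, had 319, 272 and 295 in KO control MEFs, against 161, 150.2 and 150.2 in WT control MEFs (log2 fold change 0.94 ± 0.10 (SE; adjusted p = 7.16e-07)). Per kb of exon, Gnb1 and Gnb2 made up nearly all of the family in both genotypes: Gnb1 held 46.4% and Gnb2 51.4% of the sum in KO control MEFs, and Gnb1 47.4% and Gnb2 48.7% in WT control MEFs. The family sum was 4824 ± 247 in KO control and 5557 ± 148 in WT control MEFs (SD, n = 3 each).

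The γ subunits, which anchor the βγ dimer to the membrane, were all called, in both directions. Gng11 had a signal of 0, 0.832 and 0 in KO control MEFs, against 281, 276 and 276 in WT control MEFs. That is 1 read in the 3 KO control libraries together, against 1048 reads in WT control MEFs, a ratio of 840 (exact 95% interval 150 to 33194, counting error only). Gng8 had a signal of 338, 331 and 362 in KO control MEFs, against 13.5, 7.22 and 11.9 in WT control MEFs, a log2 fold change of 4.90 ± 0.20 (SE; adjusted p = 1.52e-11). Gng2 had 95.4, 115 and 113 in KO control MEFs, against 643, 612 and 648 in WT control MEFs (log2 fold change -2.55 ± 0.10 (SE; adjusted p = 1.31e-11)). Gng11 and Gng8 therefore lay at opposite ends of the family, with no overlap between the genotypes in either. Gng5 and Gng7 were higher in KO control MEFs, with log2 fold changes of 1.09 ± 0.07 (SE; adjusted p = 1.71e-09) and 1.11 ± 0.08 (SE; adjusted p = 1.22e-08), and Gng12 was lower (-0.80 ± 0.06 (SE; adjusted p = 1.04e-08)). The summed γ signal per kb differed little between genotypes, 1326 ± 66.7 in KO control and 1402 ± 31.1 in WT control MEFs (SD, n = 3 each), but its make-up differed. Gng5 held 44.8% of it in KO control and 19.9% in WT control MEFs, Gng12 22.4% in KO control and 36.7% in WT control MEFs, Gng8 17.1% in KO control MEFs and Gng11 21.6% in WT control MEFs. Gng10 (-0.66) and Gng13 (2 reads in KO control and 36 reads in WT control MEFs, a ratio of 14.4 with an exact 95% interval of 3.71 to 124) were called lower, but 72.0% of the exonic bases of Gng10 are shared with Gm20503 on the same strand and 51.6% of those of Gng13 with Chtf18 on the other strand, and the strand setting of the read counting is not stated, so both are uncertain. Gng10 also lost its call without KO control replicate 3 (-0.58) and with quantile normalization (-0.21).

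**Figure D3:**
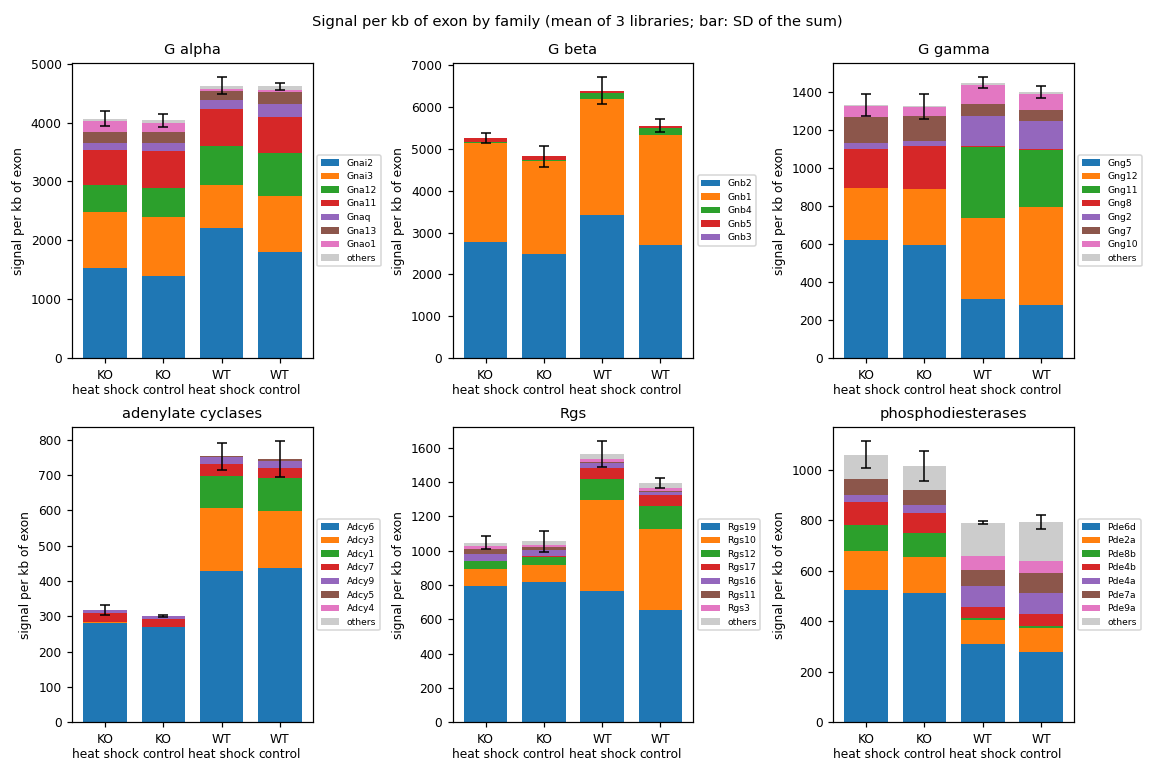
Stacked bars give the mean signal per kb of exon of each member over 3 libraries, by family, in heat-shocked KO, KO control, heat-shocked WT and WT control MEFs; error bars are the SD of the family sum. The cyclase sum is 300 in KO control and 744 in WT control MEFs, and in the γ family Gng11 is visible in the WT bars.

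Of the 6 tested adenylate cyclases, 5 were lower in KO control MEFs and 1 was not called. Adcy1 had a signal of 0, 0 and 0 in KO control MEFs, against 1304, 1128 and 1105 in WT control MEFs. Adcy1, a cyclase stimulated by calcium and calmodulin, thus had no read in KO control MEFs and 4402 reads in WT control MEFs, at least 1176-fold lower (taking 3 reads in the group as the floor). Adcy3 had a signal of 1.06, 2.497 and 11.3 in KO control MEFs, against 1025, 1012 and 956 in WT control MEFs, a log2 fold change of -7.81 ± 0.60 (SE; adjusted p = 1.83e-08). Adcy3 is the cyclase of olfactory neurons and primary cilia, and 22.1% of its exonic bases are shared with Cenpo. Adcy5, a cyclase inhibited by calcium, had 0 reads in KO control and 91 reads in WT control MEFs, at least 24.3-fold lower. Adcy6 had a signal of 1819, 1805 and 1844 in KO control MEFs, against 3221, 2918 and 2755 in WT control MEFs, a log2 fold change of -0.70 ± 0.06 (SE; adjusted p = 1.13e-07). The call of Adcy6 was lost after removal of chromosome medians (-0.25). Adcy6, the closest relative of Adcy5, was the most abundant cyclase in both genotypes, with 89.4% of the family's signal per kb in KO control and 58.7% in WT control MEFs. Adcy9 was lower as well (log2 fold change -1.60 ± 0.20 (SE; adjusted p = 3.46e-06)), whereas Adcy7 had 139.99, 195 and 153 in KO control MEFs and 230.2, 191 and 181 in WT control MEFs, with overlap, and was not called (-0.31). The cyclase sum per kb was 300.5 ± 3.26 in KO control and 744 ± 51.1 in WT control MEFs (SD, n = 3 each).

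The promoters of a few members with large changes are shown as examples of start regions dense and poor in CG dinucleotides. The 150 bases before the RefSeq start (build GRCm38.p6) are printed 5′ to 3′ on the gene's strand, with each CG in capitals, for 4 members that were nearly or fully unread in KO control MEFs and for Gng8, which rose; all 5 were chosen after their values were seen. They lie at chr11:7063283-7063432 (plus strand), chr16:35154714-35154863 (plus strand), chr7:81213115-81213264 (plus strand), chr10:5922401-5922550 (minus strand) and chr7:16891636-16891785 (plus strand).
Adcy1: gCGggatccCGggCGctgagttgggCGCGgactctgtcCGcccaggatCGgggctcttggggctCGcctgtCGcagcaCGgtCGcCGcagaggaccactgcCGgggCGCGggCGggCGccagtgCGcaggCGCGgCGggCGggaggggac
Adcy5: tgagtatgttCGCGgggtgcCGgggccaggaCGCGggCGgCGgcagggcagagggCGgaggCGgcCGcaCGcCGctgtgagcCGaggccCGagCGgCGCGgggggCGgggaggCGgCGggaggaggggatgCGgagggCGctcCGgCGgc
Pde8a: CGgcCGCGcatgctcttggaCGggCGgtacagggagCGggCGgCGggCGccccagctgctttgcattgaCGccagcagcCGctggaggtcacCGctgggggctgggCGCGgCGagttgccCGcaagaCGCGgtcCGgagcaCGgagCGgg
Rgs17: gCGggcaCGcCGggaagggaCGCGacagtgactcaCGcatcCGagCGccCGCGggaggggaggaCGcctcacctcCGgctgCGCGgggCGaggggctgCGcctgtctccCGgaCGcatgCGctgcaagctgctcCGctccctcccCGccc
Gng8: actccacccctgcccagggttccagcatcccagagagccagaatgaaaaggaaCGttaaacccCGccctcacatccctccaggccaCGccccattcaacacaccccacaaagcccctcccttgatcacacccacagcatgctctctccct
The stretch holds 22 CG in Adcy1, 24 in Adcy5, 21 in Pde8a, 21 in Rgs17 and 3 in Gng8. For Adcy1 and Pde8a, the 50 bases after this start were not found in the gene's own transcript. Other members went the other way: Pde1a, with 11 reads in KO control MEFs, had observed-to-expected CG ratios of 0.15 to 0.44 in its 4 windows, while Gnao1 (1.05), Gng5 (1.095) and Pde8b (up to 1.01), which rose, had a ratio above 0.6. Over windows from 250 bases before to 50 after the start, 60 of the 80 members had 94 windows in the table. At least 1 window with an observed-to-expected CG ratio above 0.6 was found for 17 of 19 members called lower, 6 of 12 called higher and 9 of 11 tested and not called. Over all tested genes with a window the shares were 68.5% of those called lower, 68.5% of those called higher and 84.1% of those not called. The cAMP response element TGACGTCA (searched on both strands) was in 0 of the 94 member windows and in 1.79% of all windows, and the GC box GGGCGG in 44.7% of member windows and 35.7% of all. These are descriptions of sequence, not of binding.

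Rgs genes held some of the widest contrasts between close relatives. Rgs17 and Rgs20 belong to the RZ class, whose members act on Gz and other inhibitory subunits. Rgs17 had a signal of 3.18, 8.32 and 10.2 in KO control MEFs, against 505, 528 and 519.8 in WT control MEFs, a log2 fold change of -6.10 ± 0.32 (SE; adjusted p = 1.87e-10). Rgs20 had a signal of 45.6, 64.9 and 65.6 in KO control MEFs, against 0, 0 and 0 in WT control MEFs. Rgs20 thus had 179 reads in KO control MEFs and none in WT control MEFs, at least 74.5-fold higher. The third RZ gene, Rgs19, was the most abundant Rgs gene and was not called; it held 77.4% of the Rgs signal per kb in KO control and 46.8% in WT control MEFs. In the R12 class, Rgs10 had a signal of 169, 161 and 167 in KO control MEFs, against 821, 804 and 795 in WT control MEFs (log2 fold change -2.28 ± 0.09 (SE; adjusted p = 1.26e-11)), and Rgs12 had a signal of 442, 463 and 409 in KO control MEFs, against 1210.04, 1170.3 and 1130.4 in WT control MEFs (-1.42 ± 0.07 (SE; adjusted p = 6.38e-11)). Both were lower without overlap. Of the R7 class, which binds Gβ5, Rgs11 was higher at a low level (85.9, 64.9 and 85.9 in KO control and 22.8, 10.8 and 14.7 in WT control MEFs; log2 fold change 2.27 ± 0.24 (SE; adjusted p = 6.66e-07)), while Rgs9 was lower (-1.69) at a signal of at most 12.4 in these 6 libraries, a call lost with quantile normalization (-0.91). In the R4 class, small Rgs proteins that act on inhibitory and q subunits, Rgs2 (-1.77) and Rgs4 (-3.73) fell, Rgs16 rose (0.80) and Rgs3 was not called (-0.04). Rgs22, a larger RGS-domain protein, was lower (-1.65).

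Phosphodiesterases changed in both directions, often within a subfamily. Of the genes that hydrolyse both nucleotides, Pde3b had a signal of 0, 0 and 0 in KO control MEFs, against 102, 115 and 123 in WT control MEFs. Pde3b, best known for lowering cAMP under insulin in fat cells, had 0 reads in KO control MEFs and 433 reads in WT control MEFs, at least 116-fold lower. Its paralogue Pde3a was higher at a lower level, 65.8, 49.9 and 52.01 in KO control MEFs against 4.15, 18.8 and 20.96 in WT control MEFs (log2 fold change 2.11 ± 0.43 (SE; adjusted p = 4.50e-04)). Pde1a had a signal of 3.18, 2.497 and 5.65 in KO control MEFs, against 255, 286 and 368 in WT control MEFs (log2 fold change -6.03 ± 0.32 (SE; adjusted p = 2.70e-10)), and Pde1b fell as well, with 2 reads in KO control and 93 reads in WT control MEFs (a ratio of 37.3, exact 95% interval 10.03 to 312); both encode enzymes stimulated by calcium and calmodulin. Pde2a, which is stimulated by cGMP, had a log2 fold change of 0.56 ± 0.06 (SE; adjusted p = 6.74e-07) and was not called. It passed the limit with quantile normalization (0.64), in edgeR (0.59) and without WT control replicate 1 (0.61), and 64.3% of its exonic bases are shared with Gm45837. Pde10a was not called (0.08).

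Among the cAMP-specific enzymes, Pde8a had a signal of 0, 0.832 and 0 in KO control MEFs, against 88.1, 90.2 and 104 in WT control MEFs. Only 1 read was found in KO control MEFs, against 359 reads in WT control MEFs, a ratio of 288 (exact 95% interval 51.3 to 11391, counting error only). Pde8b had a signal of 542, 578 and 571 in KO control MEFs, against 30.1, 48.4 and 34.9 in WT control MEFs, a log2 fold change of 3.89 ± 0.16 (SE; adjusted p = 1.61e-11). The PDE8 enzymes have a high affinity for cAMP, and here the paralogues differed in opposite directions without overlap. In the PDE4 subfamily, which is anchored at many sites in the cell, Pde4a fell (-1.40 ± 0.10 (SE; adjusted p = 7.82e-09)) while Pde4b (0.76 ± 0.08 (SE; adjusted p = 3.07e-07)) and Pde4d (0.80 ± 0.08 (SE; adjusted p = 2.31e-07)) rose. Pde7a was not called (-0.40). Of the cGMP-specific enzymes, Pde9a had a signal of 0, 0 and 0 in KO control MEFs, against 170.05, 189 and 145 in WT control MEFs. Pde9a had no read in KO control and 634 reads in WT control MEFs, at least 169-fold lower. Pde5a, the target of sildenafil, was higher with 59.4, 79.1 and 76.9 in KO control MEFs, against 6.22, 3.61 and 5.59 in WT control MEFs (log2 fold change 3.58 ± 0.39 (SE; adjusted p = 7.58e-07)). Pde6d, which encodes a carrier of prenylated proteins without catalytic activity, was higher (0.87) and held 50.4% of the family's signal per kb in KO control and 35.2% in WT control MEFs.

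**Figure D4:**
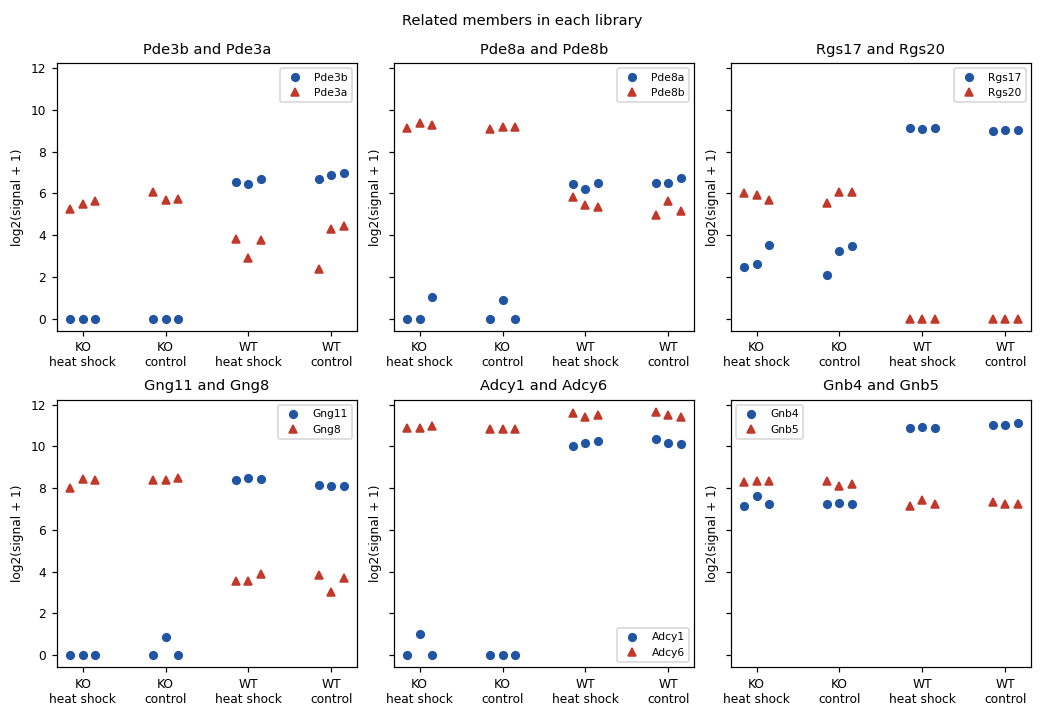
Log2(signal + 1) in every library for 6 pairs of members of a shared family, in heat-shocked KO, KO control, heat-shocked WT and WT control MEFs. The pairs were picked as examples and are not all closest relatives. Pde3b, Pde8a, Gng11 and Adcy1 are at or near 0 in all KO libraries, Rgs20 is at 0 in all WT libraries, and Pde8b and Gng8 are higher in every KO library than in any WT library.

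In heat-shocked MEFs the genotypes were compared again, with group means from other libraries than in the control comparison but with 1 estimate of the spread over all 12 libraries. There, 39 of 54 members were called in KO relative to WT MEFs, 15 higher and 24 lower, against 48.7% of all genes (23.2% higher and 25.5% lower). In both comparisons 38 members were called in the same direction, and none was called in opposite directions. This overlap was not counted over all genes, so whether it is particular to the members was not tested. Gnaq (-0.31), Rgs9 (-0.46) and Rgs16 (0.40) were called in control MEFs only, and Pde2a (0.67) in heat-shocked MEFs only; these differences between the comparisons were not called as differences of response. Adcy1 had 1 read in heat-shocked KO and 3006 reads in heat-shocked WT MEFs, Gng11 had 0 reads in heat-shocked KO and 916 in heat-shocked WT MEFs, and Pde3b 0 in heat-shocked KO and 248 in heat-shocked WT MEFs, while Rgs20 had 161 reads in heat-shocked KO and none in heat-shocked WT MEFs. These members were apart in both sets of libraries. Both sets compare KO with WT MEFs, so the repeat cannot tell the loss of TG2 from another difference between the cell lines.

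In WT MEFs, 2 of 54 members were called after heat shock, a share close to the 3.68% of all genes. Of the 2 called, 1 was higher (1.66% of all genes) and 1 lower (2.02%). Rgs16, an R4 gene that is induced by many stimuli, had a signal of 79.02, 66.3 and 70.3 in heat-shocked WT MEFs, against 37.3, 50.5 and 51.7 in WT control MEFs, without overlap (log2 fold change 0.63 ± 0.19 (SE; adjusted p = 0.0248)). The call was lost in a fit of the compared groups alone (adjusted p = 0.0524 in limma) and without WT control replicate 1 (0.0789), WT heat shock replicate 1 (0.0705) or WT heat shock replicate 3 (0.0653). Pde5a, named after its values were seen because its level was low, was lower with 1.98, 0 and 2.76 in heat-shocked WT MEFs, against 6.22, 3.61 and 5.59 in WT control MEFs (log2 fold change -1.43 ± 0.39 (SE; adjusted p = 0.0142)). That call was lost in the fit of the compared groups alone (adjusted p = 0.0914), in edgeR (0.0608), in DESeq2 (0.0917) and without WT control replicate 3 (0.0549). Several abundant members passed the p limit below the fold limit in WT MEFs. Gnaq (-0.50 ± 0.06 (SE; adjusted p = 3.17e-04)), Gna13 (-0.40 ± 0.06 (SE; adjusted p = 9.17e-04)) and Gnai3 (-0.35 ± 0.10 (SE; adjusted p = 0.016)) had negative changes, and Gnai2 (0.29 ± 0.06 (SE; adjusted p = 0.00545)) and Gnb2 (0.33 ± 0.07 (SE; adjusted p = 0.00449)) positive ones.

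In KO MEFs, 0 of 54 members were called after heat shock by limma, against 0.887% of all genes. An unadjusted limma p under 0.05 was found for 8 members, without a count over all genes to set beside it. Of the members, edgeR and DESeq2 each called 1, against 117 in edgeR and 101 in DESeq2 of all 14201 genes. That gene was Rgs11, with 118, 108 and 156 in heat-shocked KO MEFs, against 85.9, 64.9 and 85.9 in KO control MEFs, without overlap (log2 fold change 0.67 ± 0.24 (SE; adjusted p = 0.167) in limma, 0.69 in edgeR with an adjusted p of 0.0403 and 0.70 in DESeq2 with an adjusted p of 0.0393). Gng2 passed the p limit below the fold limit (0.45 ± 0.10 (SE; adjusted p = 0.0356)). Whether KO and WT MEFs differed in their response was tested directly, as the KO response minus the WT response. By limma 0 of 54 members, and 0% of all genes, were called. An unadjusted limma p under 0.05 was found for 9 members, again without a count over all genes. Of the members, edgeR and DESeq2 called 0. Over all genes the count depended on the fit: edgeR called 10 and DESeq2 35, and limma called 126 without WT control replicate 1 and 68 without WT heat shock replicate 1, none of them a member. The smallest p among the members was that of Gna13, whose log2 response was -0.03 in KO and -0.40 in WT MEFs (difference 0.38 ± 0.09 (SE; adjusted p = 0.112)), followed by Gnaq with -0.14 in KO and -0.50 in WT MEFs (difference 0.36 ± 0.09 (SE; adjusted p = 0.119)).

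**Figure D5:**
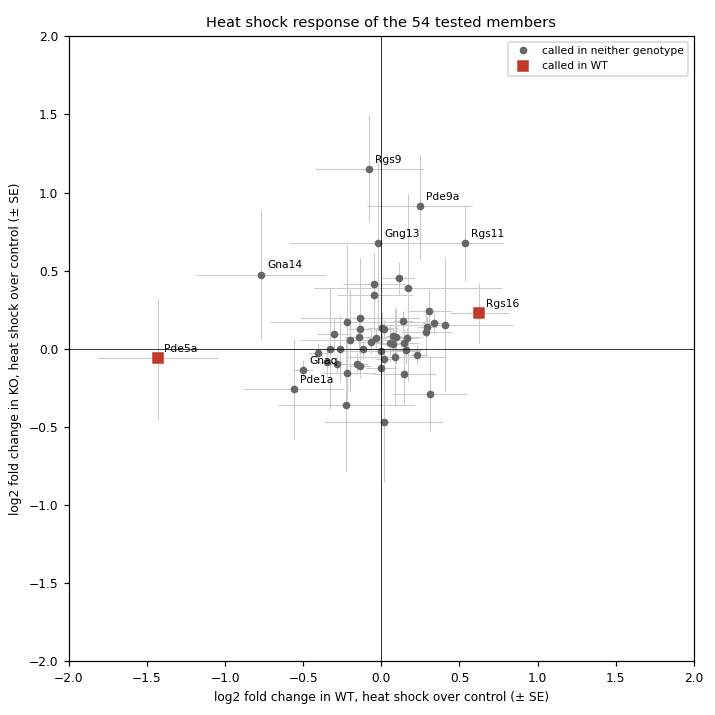
The log2 response of each tested member to heat shock in KO MEFs (vertical axis) against that in WT MEFs (horizontal axis), with standard errors. The red squares are Rgs16 and Pde5a, called in WT MEFs; no member was called in KO MEFs by limma.

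Genes up- and downstream of the members were counted from lists, again in KO control against WT control MEFs. The lists were written from general knowledge, with earlier results of these data known. For comparison, 22.9% of all genes tested were called higher and 25.8% lower. Of 33 receptors that couple to the stimulatory subunit, 12 were tested, and 7 were higher and 5 lower (median log2 fold change 1.96, against -0.04 over all genes). Ptgir, the prostacyclin receptor, averaged 863 ± 32.6 in KO control and 1.54 ± 1.18 in WT control MEFs (SD, n = 3 each). The β1 adrenergic receptor Adrb1 (3.29), the calcitonin receptor-like Calcrl (3.02) and the prostaglandin E receptor Ptger4 (2.11) were also higher. Of 16 tested receptors for the other α classes, 6 were higher and 4 lower, with the largest change in the prostaglandin F receptor Ptgfr (7.64). Of 8 tested receptor kinases and arrestins, 3 were lower and 0 higher. Adrbk2, a kinase that silences activated receptors, had 0 reads in KO control and 556 reads in WT control MEFs (at least 148-fold lower), and Arrb1, β-arrestin 1, averaged 975 ± 21.7 in KO control and 6487 ± 47.6 in WT control MEFs (SD, n = 3 each; log2 fold change -2.73). Arrb2, β-arrestin 2, lay just under the fold limit (0.57) and was called higher in edgeR (0.60), in DESeq2 (0.59), with quantile normalization (0.64), after removal of chromosome medians (0.65) and without WT control replicate 1 (0.65) or KO control replicate 3 (0.64).

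For the Gh role of TG2, 4 of 8 listed genes were tested, and 3 were lower and 0 higher. Over all genes tested, 25.8% were called lower and 22.9% higher. With so few genes, whether this list differs from all genes was not tested. All 3 lower genes are named, Adra1b and Adra1d after their values were seen. The α1B adrenergic receptor Adra1b had 0 reads in KO control and 206 reads in WT control MEFs, at least 55.0-fold lower. Adra1d (-2.26) and the phospholipase Plcd1 (-1.86) fell, and Plcd3 was not called (0.36). Of 6 tested genes of phospholipase C β and the IP3 receptors, which act below the q class, 1 was higher and 3 lower: Plcb1 rose (2.52) and Plcb4 (-5.28), Itpr2 (-1.06) and Itpr1 (-0.80) fell.

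Protein kinase A, the main cAMP effector, had 3 of 8 tested genes higher and 2 lower. The shares to set beside this and the next counts are 22.9% higher and 25.8% lower over all genes tested. The regulatory subunit Prkar2b averaged 3463 ± 164 in KO control and 299 ± 23.2 in WT control MEFs and Prkar1b 3.73 ± 2.39 in KO control and 125 ± 9.21 in WT control MEFs (SD, n = 3 each), and the inhibitor Pkia fell (-3.35). The catalytic subunits Prkaca (0.38) and Prkacb (0.32) were not called. Of 12 tested anchoring proteins of this kinase, 2 were higher and 3 lower, among them Akap12 (-3.10). Of 11 tested genes of the CREB family, its coactivators and the salt-inducible kinases, none was higher and 2 were lower, Ep300 (-1.003) and Atf1 (-0.63). Of 17 tested cAMP-response target genes, 4 of which are members, 7 were higher and 4 lower. The immediate early genes Nr4a2 (2.92), Nr4a1 (2.90), Dusp1 (2.40) and Fos (2.17) were higher, and these respond to many signals beside cAMP. The 4 lower genes, named after their values were seen, were Id3 (-2.09), Id1 (-0.84), the member Rgs2 and Ppargc1a, a coactivator of mitochondrial genes with 1 read in KO control and 93 reads in WT control MEFs (a ratio of 74.5, exact 95% interval 13.05 to 2974). The summed signal of the list was 8954 to 10196 in KO control and 10503 to 11808 in WT control MEFs. On the cGMP side, 5 of 16 listed guanylate cyclases and cGMP kinases were tested, with 4 lower and 1 higher. The natriuretic peptide receptors Npr3 (-4.58), Npr2 (-2.36) and Npr1 (-1.83) fell, Npr3 being a clearance receptor without a cyclase domain, and Prkg2 rose (1.33).

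Some changes moved with the chromosome of the member. The median log2 fold change of KO control over WT control MEFs was 0.55 over the 751 tested genes of chromosome 8, -0.51 over the 868 of chromosome 5 and -0.46 over the 557 of chromosome 15. On chromosome 8, 10 of 11 tested genes within 500 kb of Gnao1 were called higher and none lower. Over the whole chromosome, 46.2% of tested genes were called higher and 11.3% lower. On chromosome 5, 11 of 12 tested neighbours of Rgs12 were called lower, against 45.7% of all tested genes of that chromosome. On chromosome 15, 15 of 28 tested neighbours of Adcy6 and 7 of 10 of Pde1b were called lower, against 42.5% of that chromosome. The surroundings of the other members on these chromosomes varied. On chromosome 5, Gnb2 had 6 of 25 neighbours higher and 6 lower, and Gna12 had 1 of 10 higher and 4 lower. Rgs22 on chromosome 15 had 2 of 7 higher and 0 lower, and Adcy7 on chromosome 8 had 4 of 6 higher and 2 lower. In an alternative chosen after seeing the data, the median of each chromosome was removed in each library, and 40 of 54 members were called. Gnao1 kept a log2 fold change of 1.72 and Rgs12 one of -0.91, and both were still called, as was Pde1b on chromosome 15. Adcy6 (-0.25), Gnaq (-0.48) and Gng10 (-0.54) lost their call, and Adcy7 (-0.86) and Pde7a (-0.59) gained one as lower. The cyclases then still had 5 of 6 members lower and none higher. What sets these chromosomes apart was not tested.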

How the data were processed

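Messenger RNA libraries of 12 MEF samples were deposited as 1 table. Per the labels and the study's methods, the authors trimmed reads with cutadapt 1.10, aligned them with STAR 2.5.2, counted them per gene with HTSeq-count and divided the counts by DESeq2 size factors; the deposited values are this normalized signal. The submitters' notes name mm9 and the methods GRCm38; no coordinate was taken from the table. All deposited values were whole multiples of 1 read (100% within 0.01 read), so reads were recovered for count tests. The log2 of signal plus a pseudocount of 1 entered limma 3.58.1 (R 4.3.3; trend, 1 mean per group, all 12 libraries) over genes reaching a signal of 10 in 3 or more libraries. The step was tested on simulated data. Adjusted p-values run over all 14201 genes. Alternatives were edgeR 4.0.16 and DESeq2 1.42.0 on recovered reads, other pseudocounts, filters and scalings, a replicate block, the compared groups alone and each library left out.

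Values in every library were planned for members called in KO control against WT control MEFs. These needed groups apart and a higher-group mean of 100 or more (up to 5 in each direction per family). Members called after heat shock with a mean of at least 20 and the highest uncalled member of each family were also planned. The text departs from this plan. Some of these members, such as Gng5, Gng7, Gng12, Adcy9, Pde4b, Pde4d, Pde6d, Gnb1 and Rgs19, have no values by library. Some under the limit, such as Gna14, Rgs11, Rgs20, Pde3a, Pde5a and Pde8a, have them. Of each list, up to 4 called genes and 1 not called were eligible. The members and lists were chosen with earlier results of these data known. Levels between genes were compared as signal per kb of merged exons (GENCODE, GRCm38). Fold bounds use a floor of 3 reads over a group, and intervals of read ratios are exact, at 95%; both cover counting error only. Libraries of 1 group differed by 2.54 to 18.1 times the sampling noise (chi-squared over its degrees of freedom), so none was treated as a second sequencing of another. That excess cannot tell separate cultures from separate preparations of 1 culture. The replicate numbers were not taken to pair libraries.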

Additional observations from a re-analysis of the deposited data

How the results depend on the processing

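Of the 41 members called in KO control against WT control MEFs, 37 stayed called in every alternative that tested them, and 35 of 39 did in heat-shocked MEFs. Counts of members called in KO control against WT control MEFs ran from 34 with a filter of 50 to 45 with no filter, and the count with the replicate block was 41, against 41 without it. The block changed no count of calls in the other comparisons (2 in heat-shocked WT MEFs, 0 in heat-shocked KO MEFs, 39 between heat-shocked genotypes and 0 for the difference of responses). Deviations of same-numbered libraries correlated above 0.1 in 2 of 18 cases. Both were WT control with KO control libraries, replicate 1 (r = 0.20) and replicate 3 (r = 0.16). The block was common to all groups, so the unchanged counts do not test a pairing of the control libraries alone. After heat shock in WT MEFs, 0 members were called with the compared groups alone and 1 in DESeq2, and leaving out a library gave 1 to 3. In KO MEFs, edgeR and DESeq2 called 1 each, and leaving out a library gave 0 to 1. Adcy6, Gng10, Gng12 and Gng13 lost their call between heat-shocked genotypes with quantile normalization (Adcy6 -0.58, Gng10 -0.37, Gng12 -0.58, Gng13 -1.08), where Rgs16 gained one (0.79). The uncalled change of Pde3a after heat shock in WT MEFs (-0.23) turned positive without WT control replicate 2 (0.07) or 3 (0.15) and without WT heat shock replicate 2 (0.06), and was called lower without WT control replicate 1 (-0.90), where Rgs11 was called higher (0.80). Between control genotypes, uncalled changes turned sign in Rapgef3 with quantile normalization (0.0151) and in Rapgef3 (0.35) and Plcb3 (0.062) after removal of chromosome medians, and in Tubb3 with quantile normalization (0.0341) and on leaving out a library (range -0.1087 to 0.0596). Of 74 genes outside the symbol rule, Tgm2 included, 16 changed in call or sign in at least 1; Ep300, Atf1, Arhgef12, Arhgef11, Ric8b, Enpp2 and Pde4dip lost their call after removal of chromosome medians. Quantile normalization put the median log2 fold change of all genes at 0.09 between control genotypes, against -0.04. The causes were not tested. With 3 libraries a group, an exact permutation test of a single gene cannot go below 0.1, and members with a signal near 10 rest on few reads.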
